A study of Mus musculus with 9 samples.

Results

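The interferon regulatory factors examined here were Irf1, Irf2, Irf3, Irf4, Irf5, Irf7, Irf8 and Irf9, chosen by symbol from the Ensembl identifiers of the count table. All 8 were found among its 53465 genes, and all 8 were among the 12610 genes that passed a filter on low counts. The family shares a DNA-binding domain that reads repeats of the bases GAAA, and its members turn signals from pathogen sensors and interferon receptors into transcription. Some members wait in the cytoplasm until they are phosphorylated, whereas others are set by how much of them a cell makes. In macrophages they set the interferon response, the inflammatory cytokines and parts of the identity of the cell.

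RNA was sequenced in bulk from 9 mouse libraries in 3 groups. Lining macrophages (libraries A, B and C) were CD45+CD11b+F4/80+GFP+ cells, and interstitial macrophages (libraries D, E and F) were CD45+CD11b+F4/80+GFP- cells, both sorted from hind paw synovial tissue of healthy Cx3cr1-GFP mice. In that strain GFP reports the gene of the fractalkine receptor, so Cx3cr1 itself separated the sorts and was no finding between them. Bone marrow-derived macrophages (BMDM, libraries G, H and I) were grown from C57BL/6 marrow for 5 days in medium conditioned with MCSF, the growth factor of macrophages. Zygosity of the GFP allele, age and sex were not given in the sources used here, and no label said whether the libraries of a group came from separate animals, so p-values measured the spread between these libraries, which may be technical. BMDM differed from both sorted groups in strain label, in culture and in not having been dissociated and sorted from tissue, and these differences cannot be told apart.

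Libraries held between 2194920 and 22499823 counts, and the shallowest were lining A and interstitial D. All 8 macrophage markers examined had counts in every group. A list of 11 immediate early and heat shock genes, the latter Hspa1a and Hspa1b, holds genes known to rise during tissue dissociation. Summed over it, levels in CPM, the counts scaled to a common library total, were 6366 to 10275 CPM in lining, 5376 to 10354 CPM in interstitial and 446 to 474 CPM in BMDM. Summed fibroblast markers reached 171 to 304 CPM in lining and 191 to 693 CPM in interstitial, against 2.08 to 2.88 CPM in BMDM. Their part in the results that follow was not tested. In bulk RNA, fewer cells of a type and less RNA per cell cannot be told apart.

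Lining and interstitial macrophages differed clearly in 1 member, Irf8, which was higher in the lining. Both sorted groups differed from BMDM in Irf1 and Irf4, which were higher in the tissue cells, and in Irf7 and Irf9, which were lower there. Irf8 of interstitial macrophages was also lower than in BMDM, and Irf5 of lining macrophages was higher than in BMDM. Irf2 and Irf3 passed the test in none of the 3 comparisons by edgeR's quasi-likelihood test. A gene is called here at a Benjamini-Hochberg adjusted p under 0.05 over all genes tested.

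In lining against interstitial, 1 of 8 members was called, where 5.79% of all genes tested were called (3.74% higher and 2.05% lower), and 3 members had an unadjusted p under 0.05. The libraries of these groups did not overlap for 2 members, Irf8 and Irf9, where 18.6% of all genes did not overlap. In lining against BMDM, 5 of 8 members were called (3 higher and 2 lower), against 43.5% of all genes (23.1% higher and 20.5% lower). The libraries did not overlap for 7 of 8 members in that comparison, against 63.1% of all genes. In interstitial against BMDM, 5 of 8 members were called (2 higher and 3 lower), against 44.8% of all genes (23.4% higher and 21.3% lower), and 5 of 8 did not overlap, against 62.2% of all genes. Both comparisons with BMDM share the BMDM libraries.

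**Figure D1:**
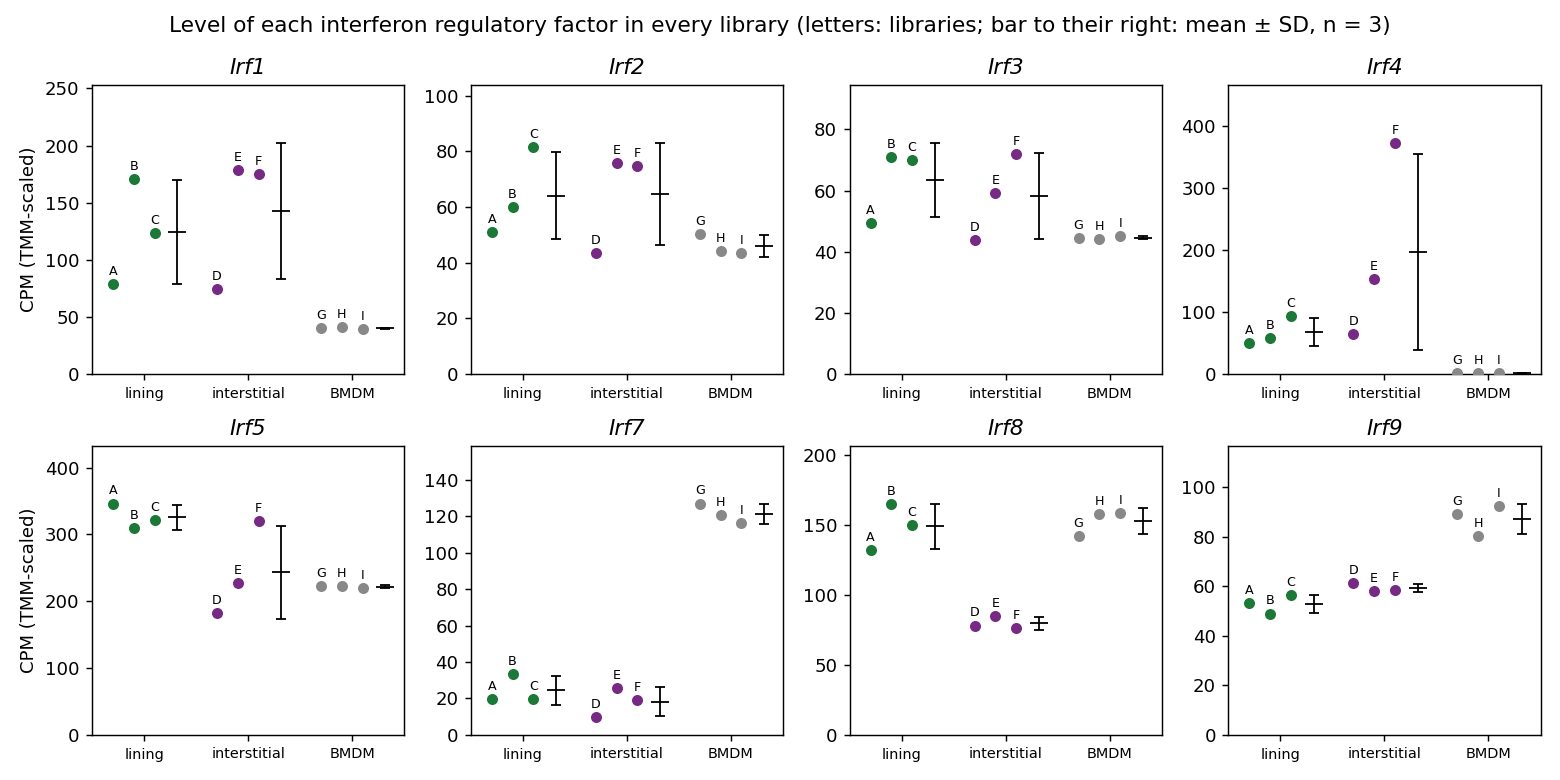
Level of each member in CPM (vertical axis, from 0, with its own scale in each panel) in the lining, interstitial and BMDM libraries. Each point is 1 library, named by its letter, and the bar to the right of the points is the mean ± SD of 3 libraries. Irf8 of the interstitial libraries lies between 76.0 and 84.6 CPM, below every library of the other groups, and Irf4 of BMDM lies at 2.16 CPM or less.

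The promoters of the 4 members with the largest fold changes in any comparison are shown here. They are RefSeq promoter windows (GRCm38.p6), each running from 250 bases before the start of the gene to 50 bases after it, on the strand of the gene. Capitals mark matches to TTCNNNGAA, the palindrome that STAT dimers bind, or to TATAAA, the core promoter box near the start of some genes. Irf1 lies at chr11:53769764-53770063 (plus strand), Irf4 at chr13:30748983-30749282 (plus strand), Irf7 at chr7:141266375-141266674 (minus strand) and Irf8 at chr8:120736108-120736407 (plus strand).
Irf1: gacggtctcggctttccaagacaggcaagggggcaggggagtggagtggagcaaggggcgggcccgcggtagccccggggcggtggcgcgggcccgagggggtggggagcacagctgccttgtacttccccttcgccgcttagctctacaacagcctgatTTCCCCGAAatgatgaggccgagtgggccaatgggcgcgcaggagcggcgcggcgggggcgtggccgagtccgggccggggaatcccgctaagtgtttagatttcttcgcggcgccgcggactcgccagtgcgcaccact
Irf4: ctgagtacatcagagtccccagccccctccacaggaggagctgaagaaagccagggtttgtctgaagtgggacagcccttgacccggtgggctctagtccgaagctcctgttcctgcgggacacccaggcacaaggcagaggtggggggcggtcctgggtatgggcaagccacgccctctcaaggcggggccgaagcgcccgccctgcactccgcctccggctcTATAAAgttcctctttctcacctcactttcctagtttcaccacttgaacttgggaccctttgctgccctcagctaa
Irf7: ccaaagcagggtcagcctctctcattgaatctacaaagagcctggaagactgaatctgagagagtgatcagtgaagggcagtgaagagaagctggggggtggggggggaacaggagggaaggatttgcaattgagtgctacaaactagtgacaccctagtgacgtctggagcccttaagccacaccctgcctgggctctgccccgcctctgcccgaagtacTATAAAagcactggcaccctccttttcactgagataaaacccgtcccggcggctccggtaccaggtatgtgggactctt
Irf8: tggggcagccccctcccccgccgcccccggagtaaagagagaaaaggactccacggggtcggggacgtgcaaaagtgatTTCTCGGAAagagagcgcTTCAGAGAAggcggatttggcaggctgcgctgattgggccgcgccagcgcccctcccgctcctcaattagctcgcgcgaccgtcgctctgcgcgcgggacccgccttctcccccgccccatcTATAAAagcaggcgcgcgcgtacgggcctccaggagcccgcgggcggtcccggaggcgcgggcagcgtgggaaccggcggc
All 8 members were matched in the RefSeq table, with 11 windows in all. The STAT pattern, which reads the same on both strands, occurred in windows of Irf1, Irf2 and Irf8, and in 8.30% of 32851 promoter windows of the table. It stood at positions -90 to -82 of Irf1 and at -171 to -163 and -153 to -145 of Irf8, counted from the RefSeq start of the gene. TATAAA occurred on the strand of the gene in windows of Irf4, Irf7 and Irf8, between 31 and 21 bases before the start, and on either strand in 13.6% of all windows. Patterns of the interferon-stimulated response element and of the composite site of PU.1 and interferon regulatory factors, searched on both strands, overlapped in the window of Irf2 and were found in 3.44% and 2.72% of all windows. RefSeq and Ensembl starts differ for some members. The RefSeq start of Irf7 lies inside the Ensembl gene whose ends are given with its values, and so does its TATAAA match. A match is a description of letters and not a measured site.

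Irf3 and Irf7 are the members that switch on interferon genes after nucleic acid sensing. Irf3 is made constantly and activated by phosphorylation. Irf3 (ENSMUSG00000003184, chr7:44997648-45002848) had 49.5, 71.1 and 69.8 CPM in lining libraries and 43.9, 59.1 and 71.8 CPM in interstitial libraries, against 44.5, 44.2 and 45.1 CPM in BMDM libraries. The sorted groups overlapped, and the lowest sorted library, interstitial D, lay beside the BMDM values. Irf3 was not called in lining against BMDM (log2 fold change 0.52 ± 0.20 SE, 95% interval 0.08 to 0.96, edgeR adjusted p = 0.0563) or in interstitial against BMDM (0.39 ± 0.20, interval -0.05 to 0.83, edgeR adjusted p = 0.132). In lining against interstitial its log2 fold change was 0.12, with a 95% interval from -0.32 to 0.57. The call of Irf3 in lining against BMDM was near the threshold, with an adjusted p of 0.0473 under DESeq2's size factors in edgeR, 0.0304 without lining A and 0.0398 without interstitial D. In interstitial against BMDM it was called without interstitial D (0.51, edgeR adjusted p = 0.0399).

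Irf7, the interferon-inducible member that amplifies type I interferon production, had the reverse pattern to Irf1 and Irf4. Irf7 (ENSMUSG00000025498, chr7:141262706-141266481) had 19.9, 33.4 and 19.9 CPM in lining libraries and 9.75, 25.7 and 19.3 CPM in interstitial libraries, against 127, 121 and 116 CPM in BMDM libraries. Every sorted library lay far below every BMDM library, and the sorted groups overlapped each other. Irf7 was lower in lining than in BMDM by 4.82-fold (log2 fold change -2.27 ± 0.29 SE, edgeR adjusted p = 6.70e-05) and lower in interstitial than in BMDM by 6.35-fold (log2 fold change -2.67 ± 0.30 SE, edgeR adjusted p = 1.84e-05). The sorted groups differed by a log2 fold change of 0.40, with a 95% interval from -0.25 to 1.05. Interstitial D held 22 Irf7 counts, the smallest count of any member in any library.

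Irf9 is the DNA-binding subunit of ISGF3, the complex through which type I interferon acts. Irf9 (ENSMUSG00000002325, chr14:55603571-55610030) had 53.3, 49.0 and 56.3 CPM in lining libraries and 61.2, 57.9 and 58.6 CPM in interstitial libraries, against 88.9, 80.3 and 92.3 CPM in BMDM libraries. No groups overlapped, and the steps were small. Irf9 was lower in lining than in BMDM by 1.65-fold (log2 fold change -0.73 ± 0.14 SE, edgeR adjusted p = 0.00162) and lower in interstitial than in BMDM by 1.47-fold (-0.56 ± 0.14 SE, edgeR adjusted p = 0.00711). It was not called in lining against interstitial (log2 fold change -0.17, 95% interval -0.49 to 0.15, edgeR adjusted p = 0.592). Irf9 shares 123 exon bases with Rnf31 on the same strand, where reads of these genes cannot be told apart.

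Irf1, which interferon gamma induces, switches on genes of antigen presentation. Irf1 (ENSMUSG00000018899, chr11:53770014-53778374) had 79.1, 170.5 and 124 CPM in lining libraries and 74.0, 179 and 175 CPM in interstitial libraries, against 39.9, 40.8 and 39.6 CPM in BMDM libraries. Every sorted library was above every BMDM library, while the sorted groups covered the same range. Irf1 was higher in lining than in BMDM by 3.13-fold (log2 fold change 1.65 ± 0.33 SE, edgeR adjusted p = 0.00219) and higher in interstitial than in BMDM by 3.59-fold (1.84 ± 0.33 SE, edgeR adjusted p = 0.00102). Set against interstitial, lining had a log2 fold change of -0.20, with a 95% interval from -0.91 to 0.51. In each sorted group the library with the lowest Irf1 (A and D) was also the one with the fewest counts and the lowest sum of immediate early and heat shock genes, at 6366 CPM in A and 5376 CPM in D. Leaving out A and D raised the log2 fold change of Irf1 against BMDM to 1.85 in lining and 2.12 in interstitial. That rise follows from leaving out the libraries with the lowest Irf1, so it is no check on the difference. The part of the immediate early and heat shock genes was not tested.

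Irf2 binds the same sites as Irf1 and is known as its antagonist. Irf2 (ENSMUSG00000031627, chr8:46739732-46847458) had 50.9, 60.0 and 81.5 CPM in lining libraries and 43.4, 75.9 and 74.8 CPM in interstitial libraries, against 50.5, 44.3 and 43.4 CPM in BMDM libraries. Its groups lay close together, and the lowest lining library was just above the highest BMDM library. Irf2 was called neither in lining against BMDM (log2 fold change 0.48, 95% interval -0.03 to 0.98, edgeR adjusted p = 0.116) nor in interstitial against BMDM (0.50, interval just above 0 to 1.0, edgeR adjusted p = 0.0934). Lining against interstitial gave a log2 fold change of -0.03, with a 95% interval from -0.54 to 0.48. Without interstitial D, Irf2 was called in interstitial against BMDM (0.67, edgeR adjusted p = 0.0158).

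Irf8 is a lineage factor of monocytes, macrophages and dendritic cells that binds DNA together with PU.1. Irf8 (ENSMUSG00000041515, chr8:120736358-120756694) had 132, 165 and 149.8 CPM in lining libraries and 78.0, 84.6 and 76.0 CPM in interstitial libraries, against 142, 158 and 158 CPM in BMDM libraries. Interstitial libraries were apart from both other groups, which overlapped each other. Irf8 was higher in lining than in interstitial by 1.87-fold (95% interval 1.53 to 2.29), with a log2 fold change of 0.90 ± 0.13 SE and an edgeR adjusted p of 0.00165. It was lower in interstitial than in BMDM by 1.92-fold (log2 fold change -0.94 ± 0.13 SE, edgeR adjusted p = 0.000121). In lining against BMDM the log2 fold change was -0.03, with a 95% interval from -0.32 to 0.25.

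Irf8 is also known from dendritic cells and monocytes, and their markers were measured beside it. Summed conventional dendritic cell markers were 13.1 to 38.2 CPM in lining libraries and 34.6 to 222 CPM in interstitial libraries, against 66.6 to 81.0 CPM in BMDM libraries, with Xcr1 at 0 in lining and Clec9a at 0 in interstitial. The lining and interstitial ranges of this sum overlapped. Cd24a was most of it in BMDM (77.7, 63.9 and 63.4 CPM) and in interstitial E and F (60.8 and 159 CPM). Flt3 was at 7.98 CPM or more in interstitial and at 1.54 CPM or less in BMDM. Zbtb46 was at 17.3 CPM or more and at 0.70 CPM or less in the same groups. The part of conventional dendritic cells in the level of Irf8 was not tested. Summed plasmacytoid dendritic cell markers were 237 to 276 CPM in lining and 212 to 334 CPM in interstitial, most of it Tcf4. Siglech, another marker of that list, had 15.5, 10.98 and 18.4 CPM in lining libraries and 105.5, 36.0 and 14.4 CPM in interstitial libraries. In interstitial D, where Siglech was highest, Cox6a2 had 5 counts, and Ccr9, Klk1, Spib, Pacsin1 and Ly6d had 0. Summed monocyte markers were 435 to 449 CPM in lining and 58.5 to 197 CPM in interstitial, and most of the lining sum was Vcan, at 283 CPM or more. Of the markers of classical monocytes, Ly6c2 was at 3.24 CPM or less in all lining and interstitial libraries, and Ccr2 had 46.1, 133 and 165 CPM in lining libraries and 52.8, 158 and 100.5 CPM in interstitial libraries.

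Irf4 is the relative of Irf8 that interleukin 4 induces, and it is known from alternatively activated macrophages, some dendritic cells, B cells and plasma cells. Irf4 (ENSMUSG00000021356, chr13:30749226-30766976) had 50.4, 59.1 and 93.9 CPM in lining libraries and 65.2, 153 and 374 CPM in interstitial libraries, against 2.16, 1.84 and 1.38 CPM in BMDM libraries. All sorted libraries lay far above BMDM, and the interstitial libraries spread the most of any member in any group, with the highest 5.73 times the lowest. Irf4 was higher in lining than in BMDM by 37.4-fold (95% interval 12.7 to 110.3, log2 fold change 5.23 ± 0.68 SE, edgeR adjusted p = 0.000404). In interstitial it was higher than in BMDM by 109.6-fold (95% interval 35.3 to 340.2, log2 fold change 6.78 ± 0.71 SE, edgeR adjusted p = 0.000107). Without interstitial F, the library with the most Irf4, the log2 fold change of interstitial against BMDM was 5.92.

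The lining and interstitial libraries overlapped in Irf4. It was not called in lining against interstitial (log2 fold change -1.55 ± 0.56 SE, 95% interval -2.83 to -0.27, edgeR adjusted p = 0.177). That value rested on single libraries. It was -0.74 (edgeR adjusted p = 0.244) without interstitial F, and -1.97 (edgeR adjusted p = 0.00918), a call, without interstitial D. DESeq2 also called it, with an adjusted p of 0.0155.

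Irf5 acts downstream of Toll-like receptors and drives inflammatory cytokine genes. Irf5 (ENSMUSG00000029771, chr6:29526625-29541871) had 346, 309.6 and 322 CPM in lining libraries and 182, 227 and 319.9 CPM in interstitial libraries, against 223, 223 and 219.7 CPM in BMDM libraries. The lining libraries lay above all BMDM libraries, and interstitial F reached the lining range. Irf5 was higher in lining than in BMDM by 1.47-fold (log2 fold change 0.55 ± 0.18 SE, edgeR adjusted p = 0.0235). That call was lost, with adjusted p between 0.0563 and 0.0934, when any 1 of lining A, B or C or of BMDM G, H or I was left out. Irf5 was not called in lining against interstitial (log2 fold change 0.42, 95% interval 0.03 to 0.81, edgeR adjusted p = 0.217), and it was called without interstitial F (log2 fold change 0.63, edgeR adjusted p = 0.0151). In interstitial against BMDM the log2 fold change was 0.13, with a 95% interval from -0.25 to 0.52.

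**Figure D2:**
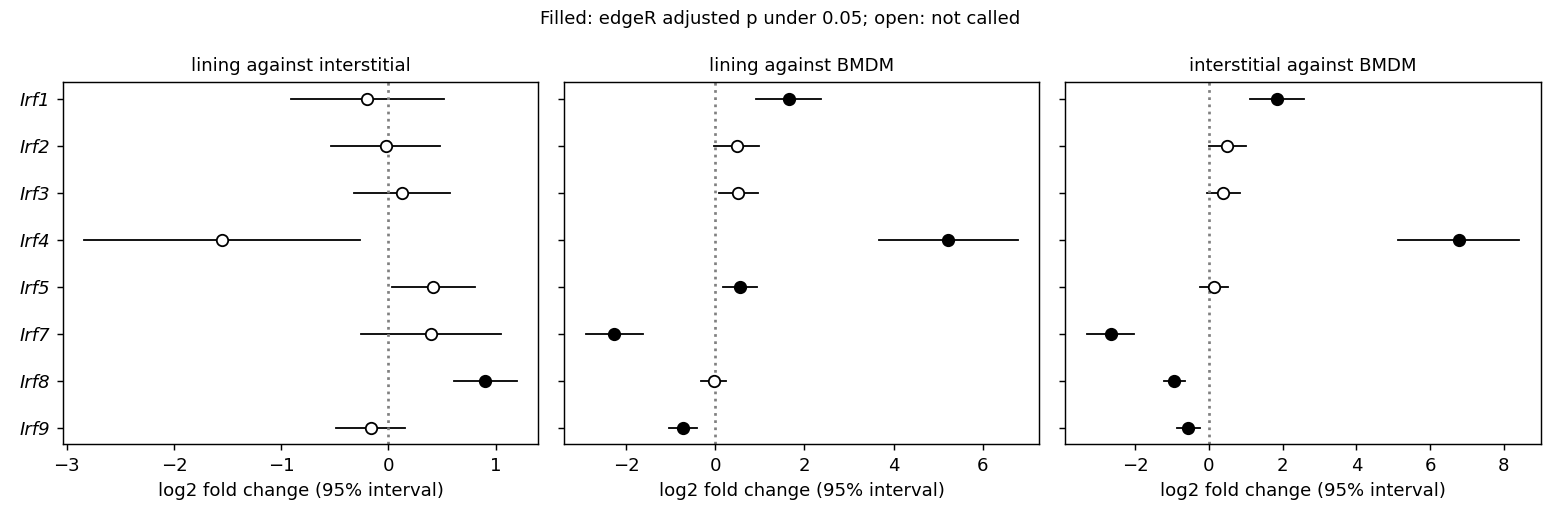
Log2 fold change (horizontal axis) of each member in lining against interstitial, lining against BMDM and interstitial against BMDM, with its 95% interval. Filled points passed the edgeR test and open points did not. In the first panel Irf8, at 0.90, is the only filled point, and in the others Irf4 lies farthest to the right, at 5.23 and 6.78, and Irf7 farthest to the left, at -2.27 and -2.67.

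The make-up of the family was compared on a per-length scale, as CPM divided by the summed exon length in kb. The 8 members summed to 222 ± 15.02 CPM per kb in lining, 213 ± 74.97 CPM per kb in interstitial and 176 ± 1.06 CPM per kb in BMDM (SD, n = 3 each). Irf5 took the largest share of that level in every library, with group means of 50.9% in lining, 40.2% in interstitial and 43.4% in BMDM. Irf1 had 13.9% in lining and 16.7% in interstitial, against 5.73% in BMDM. Irf4 had 6.19% in lining and 16.9% in interstitial, against 0.208% in BMDM. Irf7 had 2.90% in lining and 2.29% in interstitial, the lowest share of any member in both, against 18.3% in BMDM, where it came second after Irf5 by group mean. Irf8 took 9.49% in lining, 5.80% in interstitial and 12.3% in BMDM, and Irf9 took 4.44%, 5.69% and 9.20% in the same groups. Irf2 and Irf3 kept to narrow bands of group means, from 3.54% to 4.20% for Irf2 and from 7.36% to 8.27% for Irf3.

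Irf4 and Irf8 are close relatives that can use the same partners, and the ratio between them differed among groups. Per length, Irf8 stood to Irf4 as 1.82, 1.94 and 1.11 in lining libraries, as 0.832, 0.384 and 0.141 in interstitial libraries and as 45.6, 59.6 and 79.6 in BMDM libraries. Per length, Irf8 was thus the more abundant of the pair in every lining and BMDM library, and Irf4 in every interstitial library. In CPM, without division by length, interstitial D had more Irf8 (78.0) than Irf4 (65.2), so the order there depends on the length used. The ratio per length combines the values already given and was not tested.

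**Figure D3:**
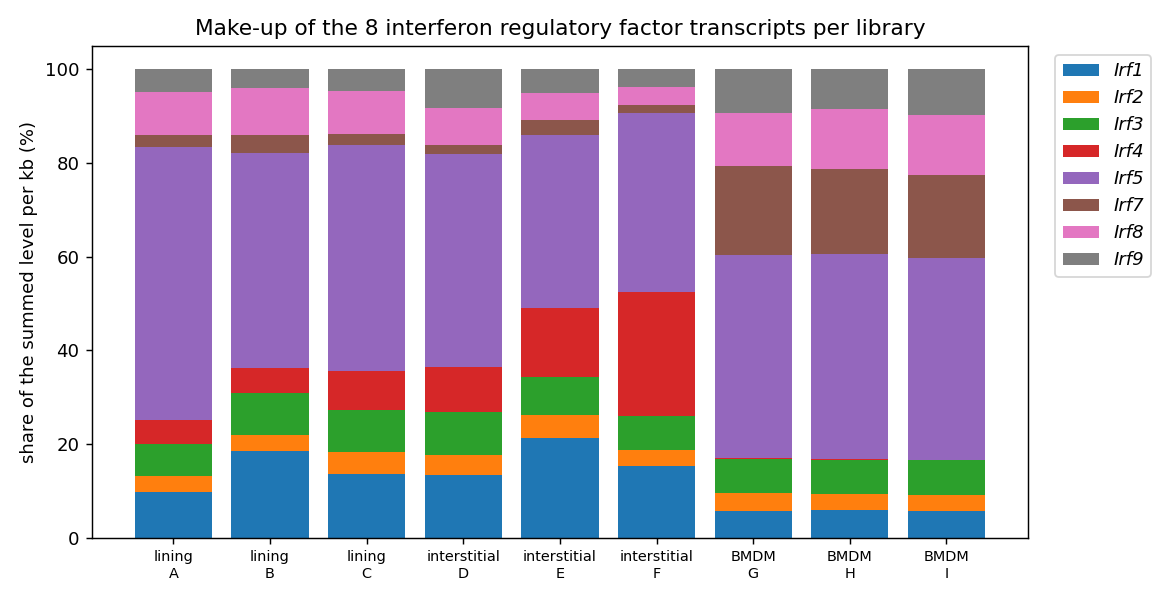
Share of each member (vertical axis, percent) in the summed per-length level of the 8 members, with 1 bar for each lining, interstitial and BMDM library. Irf5 is the largest block in every bar. The Irf4 block is widest in interstitial libraries, at 9.61% to 26.4%, and almost absent in BMDM, whereas the Irf7 block is widest in BMDM, at 17.6% to 19.0%.

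The cofactors that bind Irf2 were looked at next. The cofactor Irf2bp2 had 149.9, 188 and 162 CPM in lining libraries and 203, 259.8 and 206 CPM in interstitial libraries, against 126, 125 and 124 CPM in BMDM libraries. It was higher in interstitial than in BMDM (log2 fold change 0.84 ± 0.14 SE, edgeR adjusted p = 0.000425), and its call in lining against BMDM (0.42, edgeR adjusted p = 0.0277) was lost without lining B or C or without any 1 BMDM library. Irf2bpl was lower in interstitial than in BMDM (log2 fold change -0.94, edgeR adjusted p = 0.0150). It was higher in lining than in interstitial (1.2, edgeR adjusted p = 0.0266), a call lost without any 1 of lining A, B or C.

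The sensors, adaptors and kinases that activate Irf3, Irf5 and Irf7 formed a list of 23 genes, all tested. In lining against BMDM 5 were higher and 8 lower, with a median log2 fold change of -0.16, and in interstitial against BMDM 4 were higher and 7 lower, with a median of -0.02. The medians of all genes tested were 0.00 and -0.01 in those comparisons. Among all genes, 23.1% were higher and 20.5% lower in lining against BMDM, and 23.4% were higher and 21.3% lower in interstitial against BMDM. Cgas, the sensor of cytosolic DNA, had 2.42, 7.25 and 6.38 CPM in lining libraries and 6.21, 5.19 and 8.28 CPM in interstitial libraries, against 38.7, 38.4 and 40.02 CPM in BMDM libraries. It was lower than in BMDM in lining (log2 fold change -2.77) and in interstitial (-2.58). Ikbke, a kinase of Irf3 and Irf7, was also lower in lining (-1.66) and in interstitial (-2.55) than in BMDM. Ticam2, an adaptor of Toll-like receptor 4, was higher in both, by a log2 fold change of 2.06 in lining and 2.08 in interstitial, and so was Unc93b1, which brings Toll-like receptors to endosomes (1.19 in lining and 1.03 in interstitial). Of these genes only Ikbke was called between lining and interstitial, higher in the lining with a log2 fold change of 0.89 (edgeR adjusted p = 0.0298), and that call was lost without any 1 of lining A, lining B, interstitial E and the BMDM libraries. The count was 2 without interstitial F and with DESeq2, and 0 with limma-voom, with no filter and with only the compared groups in the fit.

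Interferon transcripts themselves were almost absent. Of 20 interferon genes, 2 had any count, Ifna7 with 6 counts in lining B and Ifnb1 with 1 count in BMDM G, and no interferon gene was tested. In a whole group, the floor of 3 counts corresponded to 0.197 CPM in lining, 0.167 CPM in interstitial and 0.0462 CPM in BMDM. Lower levels were not detectable at this depth.

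Among interferon receptors, Janus kinases, STATs and their feedback inhibitors, 16 of 17 genes were tested. In lining against BMDM 7 were higher and 3 lower, with a median log2 fold change of 0.29, where 23.1% of all genes were higher and 20.5% lower. In interstitial against BMDM 7 were higher and 4 lower, with a median of 0.35, where 23.4% of all genes were higher and 21.3% lower. Ifngr1, the ligand-binding chain of the interferon gamma receptor, had 317, 299.8 and 338 CPM in lining libraries and 266, 241 and 207 CPM in interstitial libraries, against 91.4, 88.1 and 94.3 CPM in BMDM libraries. It was higher than in BMDM in lining (log2 fold change 1.80) and in interstitial (1.38). Socs3, a feedback inhibitor of cytokine receptors, was higher in lining (7.31) and in interstitial (7.72), at 240 CPM or more in every sorted library and 2.09 CPM or less in BMDM. Stat2, a partner of Irf9 in ISGF3, was lower than in BMDM in lining (log2 fold change -1.27) and in interstitial (-0.96). Usp18, an interferon-induced brake on the type I receptor, was lower in lining (-2.80, and -4.05 without lining B) and in interstitial (-2.66). Between lining and interstitial, Il10rb (0.60) and Ptpn6 (0.55) were called higher in the lining, and each call was lost without lining A or B and in other leave-one-out fits, so that this count ranged from 0 to 2 with 1 library left out. It was 4 with limma-voom and 0 with only the compared groups in the fit.

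Most genes of a list that type I interferon induces through ISGF3 were lower in the sorted groups than in BMDM. Of 30 such genes, all tested, 22 were lower and 1 was higher in lining against BMDM, with a median log2 fold change of -1.58 where the median of all genes was 0.00. In interstitial against BMDM 19 were lower and 0 higher, with a median of -1.55 where the median of all genes was -0.01. The shares of all genes called lower were 20.5% in lining against BMDM and 21.3% in interstitial against BMDM, with 23.1% and 23.4% higher. Summed over the list, levels were 586, 854 and 642 CPM in lining libraries and 637, 797 and 633 CPM in interstitial libraries, against 2410, 2303 and 2301 CPM in BMDM libraries. Lists such as these were chosen with results of these data known, and BMDM differed from the sorted cells in strain label and culture as well as in origin.

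Oas3, which makes the second messenger of the antiviral ribonuclease L, had 0.970, 5.54 and 4.13 CPM in lining libraries and 3.99, 5.73 and 8.07 CPM in interstitial libraries, against 220, 208 and 198 CPM in BMDM libraries. It was lower in lining (log2 fold change -5.63, and -6.30 without lining B) and in interstitial (-5.09) than in BMDM. Ifi44 had 1 count in all lining libraries and 806 in BMDM, which put BMDM 189 times above lining (95% counting interval 33.8 to 7462). It had 0 counts in interstitial, where it was at least 74.3-fold lower than in BMDM, taking 3 counts over the group as the floor. Ifi27 was the 1 gene of the list that was higher in lining than in BMDM (0.79, edgeR adjusted p = 0.00767).

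Between lining and interstitial, 0 of 30 were called by edgeR, and the median was 0.04. DESeq2 called 4 of these genes and limma-voom 1, and edgeR called 3 without lining B and 1 without lining C. Lining B had the highest summed level of the sorted libraries, the highest Irf7 of those 6 and the only Ifna7 counts. It was also the deepest of them, at 11137451 counts. Interstitial E, the next deepest at 10807462 counts, had the next highest summed level (797 CPM) and the highest interstitial Irf7 (25.7 CPM). The part of depth in these values was not tested.

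**Figure D4:**
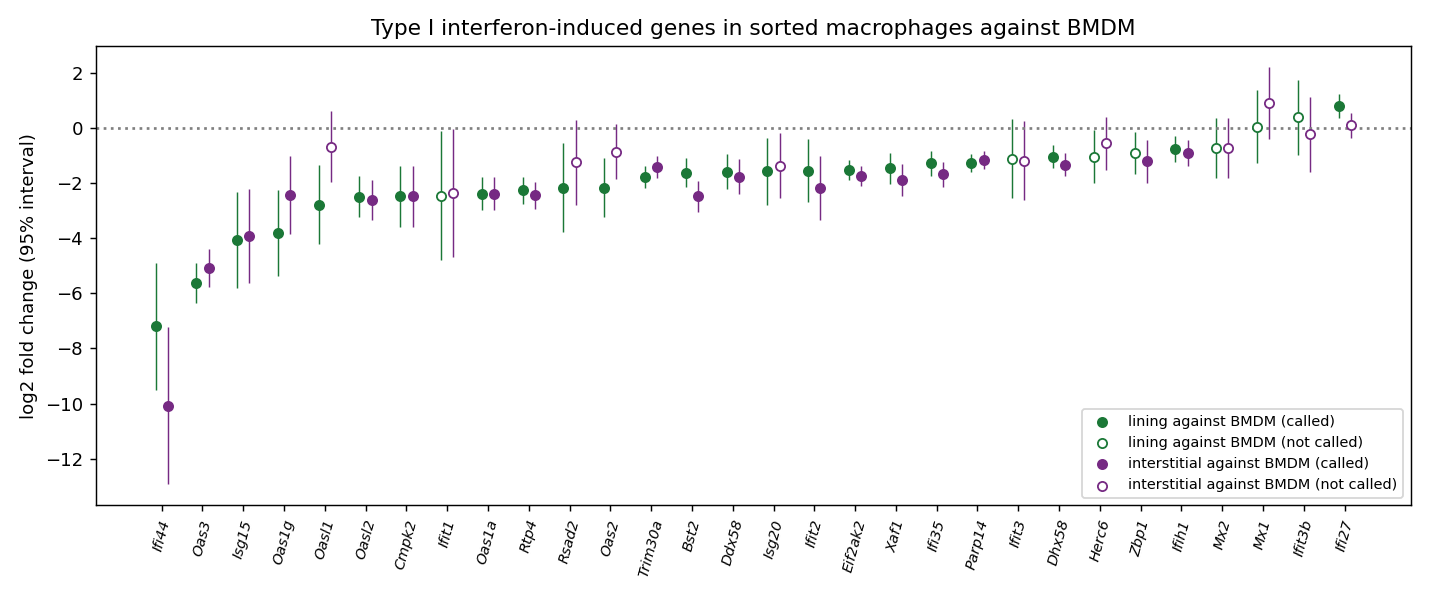
Log2 fold change (vertical axis) of 30 genes induced by type I interferon in lining and in interstitial macrophages against BMDM, with 95% intervals, ordered by the lining value. Filled points passed the edgeR test. Most points lie below 0, with medians of -1.58 and -1.55, and the points of Ifi44 rest on 1 lining count and 0 interstitial counts and are no bounds.

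Genes linked to Irf1 and interferon gamma moved both ways. Of 31 genes, 26 were tested, and 10 were higher and 4 lower in lining against BMDM, with 10 higher and 5 lower in interstitial against BMDM. The median log2 fold changes were 0.16 and 0.19, where 23.1% and 23.4% of all genes were higher and 20.5% and 21.3% lower. GTPases of cell-intrinsic defence were found on both sides, as were genes of the class I pathway. Chosen after their values were seen, the GTPase Iigp1 was higher in lining (2.93) and in interstitial (3.99) than in BMDM, and Tap2, a class I peptide transporter, was too (0.82 in lining and 0.63 in interstitial). H2-Ab1, a class II chain, had 163, 515 and 629 CPM in lining libraries and 346, 724 and 1333 CPM in interstitial libraries, against 30.1, 32.7 and 26.6 CPM in BMDM libraries. It was higher in lining (log2 fold change 3.87) and in interstitial (4.75, and 4.15 without interstitial F), as was H2-Eb1 (3.79 in lining and 4.47 in interstitial). Irgm1, a GTPase of defence against intracellular pathogens, was lower in lining (-2.04) and in interstitial (-1.78), and so was Nlrc5, the activator of class I genes (-1.88 in lining and -1.49 in interstitial).

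Gbp3 was the 1 gene of that list called between lining and interstitial. Gbp3, a guanylate-binding protein, had 9.70, 15.7 and 7.51 CPM in lining libraries and 38.1, 39.8 and 35.0 CPM in interstitial libraries, without overlap. It was lower in the lining (log2 fold change -1.72 ± 0.32 SE, edgeR adjusted p = 0.00708). The count for the list was 3 without lining C and 2 without interstitial F.

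Transcription factors that bind DNA or protein with Irf4 or Irf8 formed a list with 13 genes tested. In lining against BMDM 6 were higher and 1 lower (median log2 fold change 0.99), where 23.1% of all genes were higher and 20.5% lower. In interstitial against BMDM 6 were higher and 1 lower (median 1.32), where 23.4% of all genes were higher and 21.3% lower. PU.1 itself (Spi1), named after its values were seen, had 304 to 423 CPM in lining libraries and 337 to 361 CPM in interstitial libraries, against 306 to 318 CPM in BMDM. Cebpa, a factor of myeloid differentiation, had 418, 384 and 295 CPM in lining libraries and 219, 161 and 167 CPM in interstitial libraries, against 35.9, 35.8 and 35.1 CPM in BMDM libraries. Like Irf8 it was higher in lining than in interstitial, with no overlap (log2 fold change 1.01 ± 0.16 SE, edgeR adjusted p = 0.00300). It was also higher in lining than in BMDM (3.36).

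Junb, a subunit of the AP-1 dimers that pair with Irf4 and Irf8, was higher in lining than in BMDM (log2 fold change 3.99), and it is also an immediate early gene. It had 694 to 1021 CPM in lining libraries and 360 to 988 CPM in interstitial libraries, against 51.8 to 56.9 CPM in BMDM. Batf3, a dendritic cell factor of the same dimers, was higher in interstitial than in BMDM (4.37). Its lining libraries had 1.94 to 9.39 CPM, against 0.822 to 1.54 CPM in BMDM. Ikzf3, a lymphoid zinc finger factor, was higher in interstitial than in BMDM too (5.94, between 5.48 and 6.56 with 1 library left out), with 0 counts in interstitial D. Bcl6, a repressor, was lower in lining (-0.92) and in interstitial (-1.45) than in BMDM. The count in lining against interstitial was 3 without interstitial E.

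Genes linked to Irf8 in monocytes, macrophages, microglia or dendritic cells were mostly higher in the sorted groups than in BMDM. Of 9 tested, 6 were higher and 1 lower in lining against BMDM, where Irf8 was not called. Of all genes, 23.1% were higher and 20.5% lower there. In interstitial against BMDM, where Irf8 was lower, 6 were higher and 1 lower, against 23.4% and 21.3% of all genes. The part of Irf8 in their levels was not tested. Their median log2 fold changes were 2.41 and 2.08. P2ry12, a receptor known from microglia, was higher in lining (log2 fold change 5.66) and in interstitial (5.50) than in BMDM. Klf4, a monocyte factor, was higher in lining (4.59), and Zbtb46, a dendritic cell factor, was higher in interstitial (4.99). Klf4 had 698 to 816 CPM in lining libraries and 813 to 948 CPM in interstitial libraries, against 29.5 to 33.3 CPM in BMDM. Zbtb46 had 0.970, 13.5 and 6.38 CPM in lining libraries and 17.3, 18.9 and 22.1 CPM in interstitial libraries, against 0.70 CPM or less in BMDM. Cd180, a regulator of Toll-like receptor 4, was lower in lining (-0.96) and in interstitial (-1.29). In lining against interstitial 1 gene was called, Cst3, a secreted protease inhibitor that was higher in the lining (0.93, edgeR adjusted p = 0.0147), and this call was lost without lining A, lining B or interstitial E. The count ranged from 0 to 3 with 1 library left out.

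Of the interleukin 4 response genes described around Irf4, several varied strongly between libraries of 1 group. Of 11 tested, 5 were higher and 1 lower in lining against BMDM, and 7 were higher and 1 lower in interstitial against BMDM. The median log2 fold changes were 4.04 and 5.79, where 23.1% and 23.4% of all genes were higher and 20.5% and 21.3% lower. Ccl24, a chemokine that attracts eosinophils, had 44.1, 44.6 and 64.2 CPM in lining libraries and 360.4, 199 and 184 CPM in interstitial libraries, against 3 counts in all BMDM libraries. The lining and interstitial libraries did not overlap, and Ccl24 was lower in the lining (log2 fold change -2.28 ± 0.28 SE, edgeR adjusted p = 0.000438). Pparg, a lipid sensor, was the gene lower in both groups than in BMDM, by a log2 fold change of -3.78 in lining and -3.30 in interstitial.

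Mrc1, the mannose receptor, was also lower in lining than in interstitial (log2 fold change -1.18, edgeR adjusted p = 0.0162), a call lost without lining A or B. Il4ra, the interleukin 4 receptor chain, was higher in the lining (0.60, edgeR adjusted p = 0.0416), a call lost without any 1 of 7 libraries. Retnla, a secreted product of alternative activation, had 1267 counts in lining and 13190 in interstitial, against 1 in BMDM, and its call against BMDM was lost without any 1 BMDM library in lining and without BMDM I in interstitial. Ccl17, with 1782 counts in interstitial and 0 in BMDM, was at least 2149-fold higher in interstitial against a floor of 3 counts over the group, and its call was lost without lining A or any 1 BMDM library. Without lining A or B, 1 gene of the list was called in lining against interstitial, and without BMDM I the count in interstitial against BMDM was 5.

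The libraries highest in Irf4 within their group were lining C and interstitial F. Arg1, the arginase of alternative activation and chosen for display after its values were seen, had 0, 2.86 and 1249 CPM in lining libraries and 0, 0.0910 and 2324 CPM in interstitial libraries, against 0.0922 CPM or less in BMDM. Retnla, likewise, had 6.79, 11.7 and 424 CPM in lining libraries and 506, 226 and 2031 CPM in interstitial libraries. Ccl17 had 0, 1.145 and 17.3 CPM in lining libraries and 4.43, 18.2 and 334 CPM in interstitial libraries. In each of these genes C was the highest lining library and F the highest interstitial library. Other genes of the list did not have that order. F was the lowest interstitial library in Mrc1 (5146, 3578 and 2859 CPM in D, E and F) and in Ccl24 (360.4, 199 and 184 CPM), although C was the highest lining library in both. Il4ra had 381, 357 and 295 CPM in lining A, B and C, with C the lowest. Interstitial F was also the highest library in the dendritic cell markers Ccr7, at 23.2 CPM, and Cd24a, at 159 CPM. It was the highest too in Flt3 (7.98, 9.37 and 13.4 CPM in D, E and F) and in Zbtb46 (17.3, 18.9 and 22.1 CPM). In the other markers of that list F was not the highest, with Dpp4 at 3.40 CPM, Xcr1 at 0.850 CPM and Clec9a and Itgae at 0. Summed markers of B cells and plasma cells were 1.94 to 14.1 CPM in lining and 11.5 to 18.9 CPM in interstitial, against 18.7 to 25.1 CPM in BMDM, where Irf4 was lowest. The part of these cells in the spread of Irf4 was not tested.

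**Figure D5:**
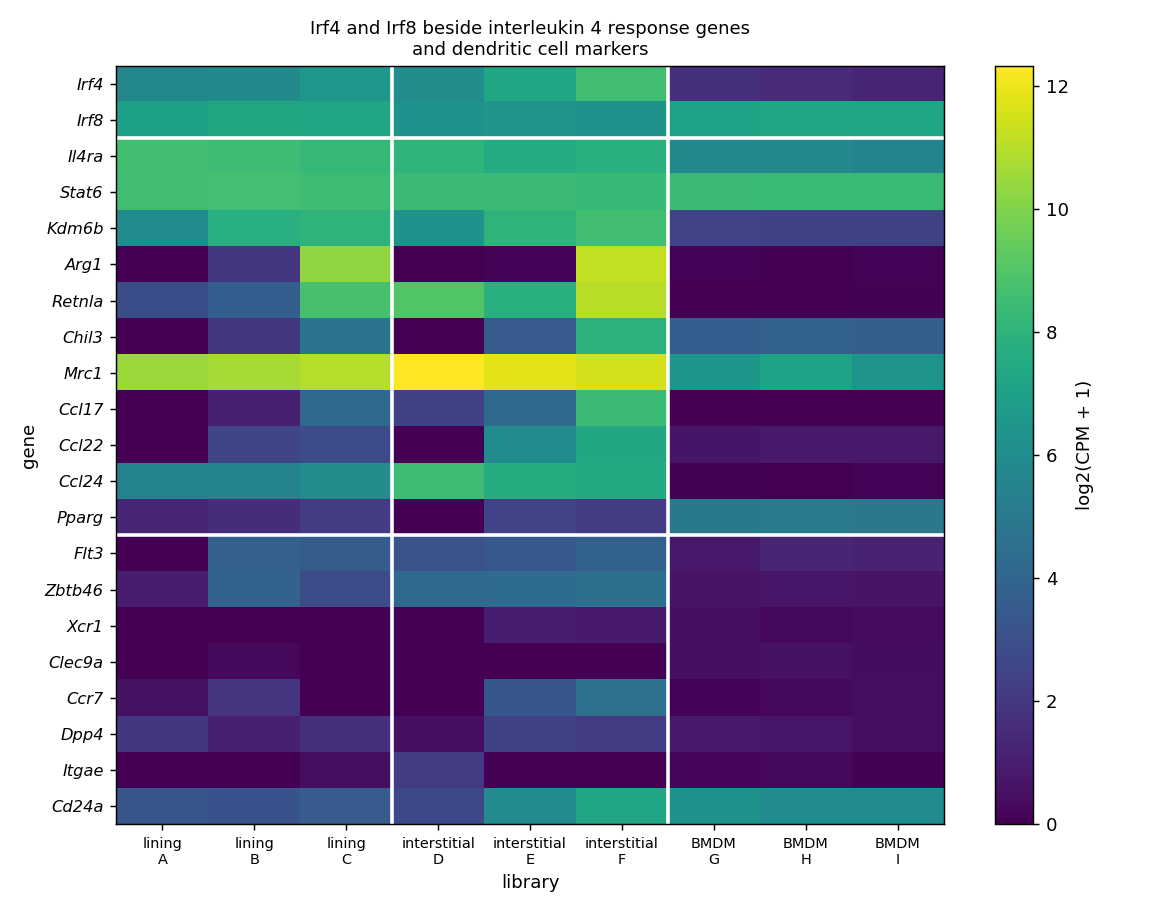
Levels as log2(CPM + 1) (colour scale) in each lining, interstitial and BMDM library (columns) for Irf4 and Irf8 (top block), 11 interleukin 4 response genes (middle block) and 8 conventional dendritic cell markers (bottom block). The row of Irf4 is brightest in interstitial F, at 374 CPM, and Arg1 is bright in lining C and interstitial F, at 1249 and 2324 CPM, and dark in the other libraries.

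Inflammatory genes described around Irf5 were few at measurable levels. Of 7, only 4 were tested, and 3 were higher and 1 lower in both comparisons with BMDM. Their median log2 fold changes were 3.38 in lining and 4.48 in interstitial, where 23.1% and 23.4% of all genes were higher and 20.5% and 21.3% lower. Il1b, the precursor of interleukin 1 beta, had 90.2, 199.6 and 419 CPM in lining libraries and 15.5, 159 and 386 CPM in interstitial libraries, against 0.216, 0.149 and 0.184 CPM in BMDM libraries. It was higher in lining (log2 fold change 10.24, and 9.54 without lining C) and in interstitial (9.91, and 8.86 without interstitial F). Il6 had 14 counts in lining and 133 in interstitial, against 3 in BMDM, and was 160.4 times higher in interstitial than in BMDM (95% counting interval 53.7 to 787). Its call in lining was lost without any 1 of 6 libraries. Ccl5, a chemokine, had 0 counts in lining, where it was at least 33.2-fold lower than in BMDM. In interstitial it was lower by a log2 fold change of -3.19 (-4.55 without interstitial E), a call lost without any 1 BMDM library. Without any 1 of those libraries Tnf, a cytokine that was called higher in interstitial (1.94, edgeR adjusted p = 0.0461), lost its call as well, so that 2 calls were left. None of the 4 was called between lining and interstitial by edgeR, and DESeq2 called 1.

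All 11 immediate early and heat shock genes were higher in lining and in interstitial than in BMDM, with median log2 fold changes of 6.23 and 6.22. Egr1, a zinc finger factor, led them, with 637, 843 and 765 CPM in lining libraries and 465, 916 and 718 CPM in interstitial libraries, against 0.346, 0.0994 and 0.231 CPM in BMDM libraries. Fosb was higher by 8.78 in lining and 8.72 in interstitial on the log2 scale. None of the 11 was called between lining and interstitial by edgeR. Among the genes already described, Irf1, Socs3, Junb, Il1b and Il6 are also known to be induced quickly by stress, and the part of dissociation in their difference from BMDM was not tested.

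In lining against interstitial, where the median log2 fold change of all genes tested was -0.01, list medians stayed near it for the sensors and adaptors (-0.02), the receptors and STATs (-0.05), the Irf1-linked genes (-0.11), the binding partners (0.11), the immediate early and heat shock genes (0.06) and the Irf8-linked genes (0.16). The median was -1.18 for the interleukin 4 response genes, of which 1 was called higher and 2 lower in the lining. For the 4 genes around Irf5 it was -1.54, or -0.92 with Ccl5 at its bound, and none of those was called.

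Finally, the genes whose profile over the 9 libraries was most like that of each member were found, by the root mean square difference of log2 CPM centred per gene. The genes nearest to Irf7 were Rnf213 (0.231), Rtp4 (0.277) and Lin9 (0.278), where the median over all genes was 1.38. Next to Irf1 were Icam1 (0.198), Hivep2 (0.215) and Fam193b (0.227), with a median of 1.11. For Irf8 they were Bola2 (0.121), Tmed1 (0.129) and Dock8 (0.129), with a median of 0.723. Irf4 had the most distant neighbours, Gm47283 (0.450), Fhl1 (0.458) and Glis2 (0.473), with a median of 2.90. For the flatter members the nearest genes were Med13l for Irf2 (0.114), Stx5a for Irf3 (0.0726), Aspscr1 for Irf5 (0.108) and Anxa5 for Irf9 (0.0790). Among the members, Irf2 and Irf3 were the closest pair, at 0.165. All these profiles share the same 9 libraries and their depths, and likeness is a description with no test.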

How the data were processed

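The authors deposited a table of read counts per gene, whole numbers with no normalisation, together with the summed exon length of each gene. Per the file headers, featureCounts 1.6.1 counted reverse-stranded reads over exons of Ensembl genes (GRCm38, release 91). The submitters' processing notes also list STAR 2.5.4a and cutadapt 1.15, without settings. Per the labels' protocols, libraries were stranded, poly(A)-selected TruSeq libraries from 500 ng of RNA, read as single 101 bp reads. Exons of Irf1, Irf3, Irf5 and Irf7 overlap a gene on the other strand, which stranded counting keeps apart.

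The counts were tested with edgeR 4.0.16 (R 4.3.3). The filter filterByExpr (minimum count 10, minimum total 15) left 12610 of 53465 genes, 53274 of which had a symbol. One mean per group was fitted to all 9 libraries with trimmed mean of M values (TMM) scaling and robust quasi-likelihood dispersion, with 6 residual degrees of freedom before moderation. P-values were adjusted by the Benjamini-Hochberg method over all genes tested. CPM are TMM-scaled, and the counting intervals (Clopper-Pearson, 95%) and floors (3 counts) cover counting error only, since reads carry no molecular identifiers. Replicates were compared by chi-square, and none agreed within sampling noise. The code was tested on simulated data. Alternatives were other scalings and filters, DESeq2 1.42.0, limma-voom (limma 3.58.1), no robust estimation, fits of the compared groups alone and each library left out.

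From each list the text names the called genes with the largest fold, at most 2 in each direction per comparison, and any other is marked as chosen after its values were seen, apart from markers. The members and lists were chosen with earlier results of these data known. Some listed genes are not reported here.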

Additional observations from a re-analysis of the deposited data

How the results depend on the processing

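Over 19 alternatives, the calls of Irf8 in lining against interstitial (log2 fold change 0.80 to 0.97, highest adjusted p 0.0158), of Irf8 in interstitial against BMDM, and of Irf1, Irf4, Irf7 and Irf9 in both comparisons with BMDM held in every one. Of 456 values of single members, 429 stayed on the same side of the threshold, 7 lost a call, 20 gained one and 0 called values reversed; some values under no call changed sign, for Irf1, Irf2, Irf3, Irf5 and Irf8. The count of members called in lining against interstitial was 1 as reported. It was 2 with DESeq2, which added Irf4, 2 without lining C and interstitial F, which added Irf5, and 2 without lining A and interstitial D, which added Irf4; both pairs were chosen after seeing the data, as the libraries with the most Irf4 and the shallowest ones. With 1 library left out it ranged from 1 to 2. The count in lining against BMDM ranged from 4 to 7 and in interstitial against BMDM from 5 to 7 over all alternatives. Irf5 in lining against BMDM was called in 12 of 19 and was lost without a filter (adjusted p 0.0624); Irf3 was gained there in 8 of 19. The cause of these changes was not tested, apart from the fewer libraries of the leave-one-out fits. No paired analysis was possible because every library carries a letter of its own. Depth limits Irf7 most, with 22 counts in interstitial D, and the interferon genes, none of which was tested.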
